A study of Mus musculus with 18 samples.

Results

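The kinesin genes of the embryonic mouse cortex were followed in RNA-seq and Ribo-seq. Members were taken by symbol alone (Kif followed by a number and at most 1 letter, or Kifc followed by a digit), which gave 41 genes of 55153 in the RNA-seq table and of 54838 in the Ribo-seq count table. They were divided by known role into 12 mitotic kinesins, 17 transport kinesins, 6 ciliary and Hedgehog kinesins and 6 other kinesins. The libraries were made from cerebral cortex of C57BL/6 mice at embryonic day 15.5, 18 in all and 3 for each genotype and assay. Ctrl was wild type. F-cKO carried floxed Fto alleles and Emx1-cre (Fto f/f, Emx1-cre), which removes an exon of the RNA demethylase Fto. M-cKO carried floxed Mettl3 alleles and the same Emx1-cre (Mettl3 f/f, Emx1-cre), which removes exons of Mettl3, the catalytic subunit of the m6A methyltransferase. No Cre is named for Ctrl, so the presence of Cre and the deletion cannot be told apart. The Emx1 promoter drives Cre in the lineage of cortical progenitors and excitatory neurons, so interneurons that migrate in from the ventral forebrain, vessels, microglia and meninges keep both genes. The floxed lines were kept on a mixed C57/BL6 and 129 background according to the methods. For Ribo-seq the methods name 3 cortical samples from "1 L", read here as 1 litter, and for RNA-seq they name no litter. The p-values below measure the spread between these libraries. In Ribo-seq that is not a spread between litters, and in RNA-seq it is not known whether it is.

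Kinesins are motor proteins that use ATP to move along microtubules or to take them apart. Mitotic kinesins build the bipolar spindle, move chromosomes, shorten microtubule ends and organize the midbody at cytokinesis, and their genes are expressed mainly from S phase to mitosis. Transport kinesins carry vesicles, mitochondria, endosomes and protein complexes, mostly towards the growing ends of microtubules in axons and dendrites, and kinesin-2 motors also carry cargo into the cilium. The embryonic cortex needs both sets, since radial glia and intermediate progenitors divide near the ventricle while their neuronal daughters migrate outwards and extend axons.

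Total counts per library were 18504094 to 22592406 in RNA-seq and 10973699 to 35853227 in Ribo-seq, so the Ribo-seq libraries differed more in depth. Values per library are CPM (counts relative to the TMM-scaled library total), and fold changes and adjusted p-values come from edgeR's quasi-likelihood test and Benjamini-Hochberg adjustment over every gene tested. Calls were made at an adjusted p under 0.05. Fto RNA in the RNA-seq libraries was 142, 147 and 111 CPM in Ctrl and 42.8, 99.2 and 32.2 CPM in F-cKO. F-cKO replicate 2 thus kept an Fto RNA level close to the lowest Ctrl library, although all 3 F-cKO libraries lay below Ctrl (log2 fold change -1.21, SE 0.33, edgeR adjusted p = 0.0298). Fto footprints were 276, 234 and 188 CPM in Ctrl and 40.4, 25.6 and 43.0 CPM in F-cKO. This fall was not called (log2 fold change -2.67, SE 0.25, edgeR adjusted p = 0.35). Mettl3 RNA went against the label: it was 29.7, 32.9 and 26.1 CPM in Ctrl and 44.0, 40.1 and 42.5 CPM in the libraries labelled M-cKO (log2 fold change 0.50, SE 0.09, edgeR adjusted p = 0.00221). These counts cover the whole gene, including exons outside the deletion, and do not check whether the deleted exons were lost. Mettl3 footprints went with the label, at 38.1, 38.3 and 41.5 CPM in Ctrl and 28.3, 26.6 and 26.8 CPM in M-cKO (log2 fold change -0.55, SE 0.09, edgeR adjusted p = 0.0157). Below, M-cKO stands for the libraries labelled M-cKO. Markers of cortical excitatory neurons summed to between 2696 and 3481 CPM in RNA-seq, and none of the 8 was near 0 in any assay. Ribo-seq F-cKO replicate 2 stood apart: 6 endothelial markers summed to 301 CPM in it and to between 12.3 and 27.3 CPM in the other 8 Ribo-seq libraries.

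Transport kinesins were the most abundant members in Ctrl cortex, and mitotic kinesins were far less abundant. Levels of different genes were compared per length, as the authors' FPKM for RNA-seq and RPKM for Ribo-seq. Kif5c, a heavy chain of the conventional kinesin-1 of neurons, was the highest in RNA-seq, at 81.5 ± 6.2 FPKM (SD, n = 3). Kif1a, which carries synaptic vesicle precursors and dense core vesicles, followed at 69.2 ± 2.97 FPKM. Kif21b and Kif5a came next at 51.8 ± 4.10 and 50.5 ± 1.60 FPKM and did not differ beyond their spread. The same was true of Kif3a and Kif1b, at 34.8 ± 2.47 and 33.7 ± 2.14 FPKM, and of Kif3c and Kif21a, at 31.1 ± 0.90 and 30.8 ± 0.93 FPKM. Kif26a at 23.0 ± 2.87 FPKM and Kif5b at 21.4 ± 1.79 FPKM closed the 10 highest, of which 9 were transport kinesins in each assay. The 17 transport kinesins together made up 83.4% of the summed FPKM of all members and the 12 mitotic kinesins 6.97%. Within the mitotic class, Kifc1, a minus-end directed motor that focuses spindle poles, was highest at 6.62 ± 0.96 FPKM. Kif14 at 0.88 ± 0.18 FPKM, Kif11 at 0.89 ± 0.09 FPKM and Kif18a at 0.90 ± 0.12 FPKM were the lowest of the class and did not differ from each other beyond their spread. Kif12, Kif28 and Kif2b were at or near 0 and were not tested in any assay, which left 38 members in RNA-seq. Kif19a was also without Ribo-seq counts in most libraries, which left 37 members for Ribo-seq and for translational efficiency (TE).

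The footprint levels ordered the members much as the RNA levels did, with a few exceptions. Dividing the footprint level (mean RPKM in Ctrl) by the RNA level (mean FPKM in Ctrl) gave ratios with a median of 2.77 over the 12 mitotic kinesins and of 1.52 over the 16 transport kinesins above 0.5 FPKM, beside 0.665 over 15322 genes above that level. Those 15322 genes were not limited to protein-coding ones, so the kinesins are not compared with coding genes alone. Kif11, the plus-end motor that pushes spindle poles apart, stood far out. Its RNA was 0.84, 1.00 and 0.84 FPKM in the Ctrl libraries, while its footprints were 22.5, 25.2 and 25.0 RPKM, a ratio of 27.1, and 0.496% of the genes compared had a higher ratio. RNA-seq held only 76 to 102 counts of Kif11 in Ctrl, against 3024 to 3225 in Ribo-seq. Both pseudogenes Gm8663 and Gm46649 lie within the span of Kif11, and the part of shared or misassigned reads in this ratio was not tested. At the other end were Kifc2, a C-terminal motor of neurons, with a ratio of 0.150 (9.50 ± 0.46 FPKM and 1.43 ± 0.13 RPKM), Kif1c, which carries cargo between Golgi and cell periphery, with 0.246, and Kifc1 with 0.388. Kifc1 has a near-identical copy, Kifc5b, and overlap of Kifc2 with Cyhr1 and Foxh1 likewise makes their split of reads uncertain.

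**Figure D1:**
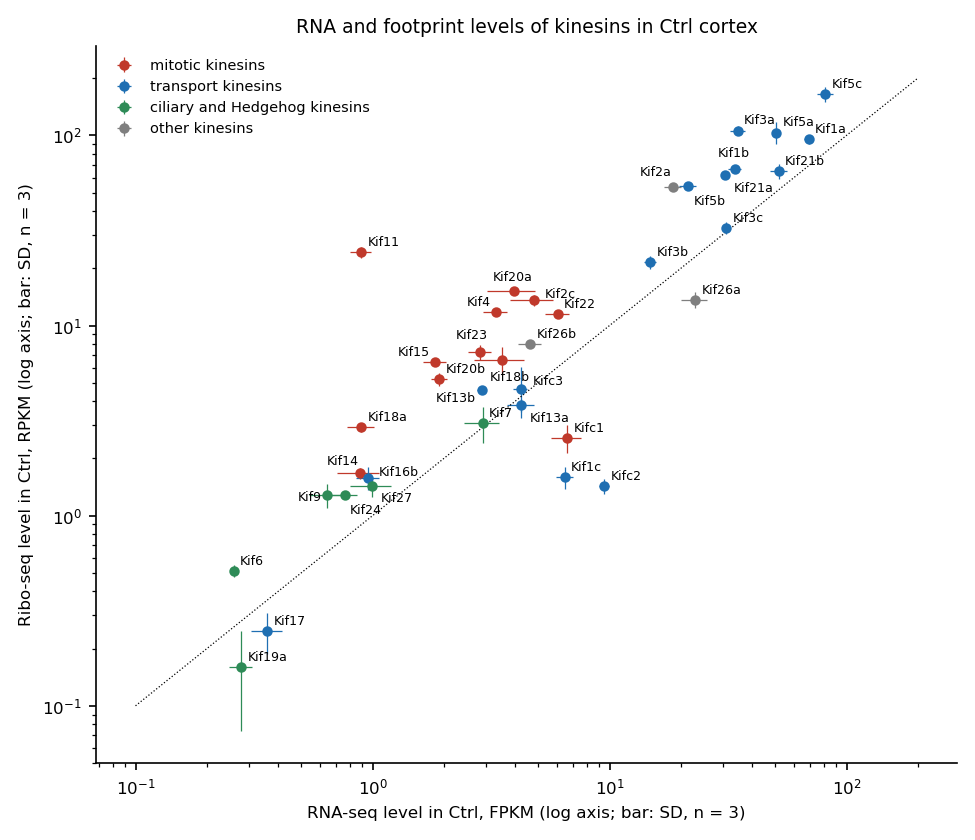
Mean RNA-seq level (x axis, FPKM) against mean Ribo-seq level (y axis, RPKM) of the kinesins above 0.2 FPKM in Ctrl, both on log axes, with SD over 3 libraries and a dotted line of equal values. Kif11 lies far above the line at 0.89 FPKM and 24.3 RPKM, while Kifc2, Kif1c and Kifc1 lie below it.

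Deletion of Fto was accompanied by higher RNA of all 12 genes placed in the mitotic class. All 12 mitotic kinesins rose in F-cKO compared to Ctrl, by 0.58 to 1.11 on the log2 scale, and none fell. In this comparison 11.5% of the 16944 genes tested were called higher and 9.57% lower, and 19 of the 38 kinesins tested were called higher and 1 lower. The median log2 fold change of the mitotic class was 0.73, beside -0.013 over all genes. The count of 12 stayed at 12 without F-cKO replicate 2, the library that kept more Fto RNA, and was 10 without Ctrl replicate 3, the Ctrl library with the lowest mitotic levels. Each of the 3 F-cKO libraries of RNA-seq lay above the highest Ctrl library for all 12 genes, and the share of all genes that do so is not given here.

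Kif4, a chromokinesin that acts on chromosome arms and at the central spindle, had 20.1, 19.0 and 16.1 CPM in Ctrl and 32.0, 32.3 and 38.4 CPM in F-cKO (log2 fold change 0.88, SE 0.11, edgeR adjusted p = 0.00296). Kif14, a motor of the central spindle and midbody, had 9.70, 10.8 and 7.21 CPM in Ctrl and 14.7, 16.4 and 16.1 CPM in F-cKO (0.76, SE 0.15). Kif23, the motor of the centralspindlin complex that positions the cleavage furrow, had 25.3, 22.1 and 20.8 CPM in Ctrl and 32.5, 37.4 and 44.0 CPM in F-cKO (0.73, SE 0.12). Each of the 3 genes was higher in every F-cKO library than in any Ctrl library. Kif20a, a motor of the central spindle that is needed for cytokinesis, had 17.6, 16.4 and 11.3 CPM in Ctrl and 28.8, 26.8 and 28.1 CPM in F-cKO (0.87, SE 0.15). Its span overlaps Brd8 and Cdc23, and whether reads were counted by strand is not stated. Kifc1 had 23.3, 25.7 and 19.3 CPM in Ctrl and 33.0, 30.2 and 40.3 CPM in F-cKO (0.58, SE 0.13), a call that was lost without Ctrl replicate 3, and its copy Kifc5b had a log2 fold change of 0.41 with SE 0.15.

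Kif2c, which depolymerizes microtubules at kinetochores and corrects wrong attachments, had 22.6, 24.5 and 16.3 CPM in Ctrl and 33.1, 31.6 and 39.0 CPM in F-cKO (log2 fold change 0.69, SE 0.15). Kif18b, which shortens astral microtubules, had 14.8, 13.8 and 9.32 CPM in Ctrl and 19.7, 20.6 and 23.7 CPM in F-cKO (0.74, SE 0.16). Kif22, another chromokinesin, had 30.2, 33.1 and 26.3 CPM in Ctrl and 44.7, 45.5 and 56.3 CPM in F-cKO (0.69, SE 0.11). Ctrl replicate 3 was the lowest of the 3 Ctrl libraries for each of these 8 genes. The largest rises of the class were those of Kif11 (1.11, SE 0.26, edgeR adjusted p = 0.0163) and Kif15 (0.98, SE 0.11, edgeR adjusted p = 0.00294), both of which push spindle poles apart. Kif11 had only 4.07, 4.86 and 4.12 CPM in Ctrl and 8.51, 13.4 and 6.40 CPM in F-cKO, and its call was lost without Ctrl replicate 1 or without Ctrl replicate 3.

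In M-cKO, RNA of the mitotic class was raised as well, but for fewer members. Of the 12 genes 7 rose, none fell, and the other 5 had log2 fold changes between 0.08 and 0.45 that were not called. Of these 5, Kif22 was called higher without the filter on low counts (0.26, edgeR adjusted p = 0.0337) and without Ctrl replicate 2 (0.33, edgeR adjusted p = 0.0364), and Kif11 without M-cKO replicate 2 (0.71, edgeR adjusted p = 0.0272). In this comparison 15.5% of the 16968 genes tested were called higher and 14.1% lower, and 12 of the 38 kinesins tested were called higher and 7 lower. The class median was 0.45, beside -0.010 over all genes. Leaving out Ctrl replicate 3 reduced the 7 calls to 5, with Kif18b and Kif23 lost. Kif18b was also lost without M-cKO replicate 2 or 3, and Kif23 without Ctrl replicate 2 or M-cKO replicate 1 or 2.

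Kif20a rose most, with 25.1, 26.2 and 26.4 CPM in M-cKO (log2 fold change 0.77, SE 0.14, edgeR adjusted p = 0.00215). Kifc1 had 35.5, 37.8 and 40.9 CPM in M-cKO (0.73, SE 0.11, edgeR adjusted p = 0.000656), and Kifc5b moved with it (0.52, SE 0.14). Kif14 had 15.9, 12.9 and 14.0 CPM in M-cKO (0.62, SE 0.15). These values lay above every Ctrl library given before. Kif18b had 16.1, 19.0 and 19.6 CPM (0.51, SE 0.16), Kif2c had 29.3, 29.2 and 30.0 CPM (0.47, SE 0.13) and Kif4 had 24.1, 26.2 and 25.3 CPM in M-cKO (0.44, SE 0.10). Kif23 had the smallest called rise, with 28.6, 32.8 and 26.3 CPM in M-cKO (0.35, SE 0.11), which left its lowest M-cKO library just above its highest Ctrl library. Kif22 had 34.1, 34.2 and 38.4 CPM in M-cKO and a log2 fold change of 0.24 with SE 0.10 that was not called (edgeR adjusted p = 0.0851).

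The direct comparison of both knockouts divided the mitotic kinesins. In M-cKO compared to F-cKO, 13.1% of the 16802 genes tested were called higher and 14.3% lower, and among the 38 kinesins tested 1 was called higher and 14 lower. Of the 14, 6 were mitotic kinesins, and no mitotic kinesin was called higher. Kif15 had the largest difference, with 36.4, 39.1 and 46.5 CPM in F-cKO and 25.0, 23.2 and 24.1 CPM in M-cKO (log2 fold change -0.76, SE 0.10, edgeR adjusted p = 0.000664). Kif20b, a motor of the midbody that is needed for abscission in cortical progenitors, had 22.2, 20.7 and 24.2 CPM in F-cKO and 14.0, 15.2 and 13.6 CPM in M-cKO (-0.66, SE 0.10, edgeR adjusted p = 0.00164). For both genes no F-cKO library overlapped with M-cKO, and in M-cKO their log2 fold changes against Ctrl were 0.23 and 0.08 and were not called. Kif22 (-0.46), Kif4 (-0.45), Kif18a (-0.43) and Kif23 (-0.39) were lower too, of which Kif18a lost the call without any single F-cKO library or without M-cKO replicate 2 or 3, and Kif23 without F-cKO replicate 2 or 3 or M-cKO replicate 1 or 3. Kifc1 (0.14, SE 0.11), Kif20a (-0.11, SE 0.08) and Kif14 (-0.15, SE 0.12) were not called between the knockouts. Kif11 was called lower in M-cKO than in F-cKO without the filter (-0.65, edgeR adjusted p = 0.00311) and without F-cKO replicate 3 (-0.87, edgeR adjusted p = 0.0453).

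**Figure D2:**
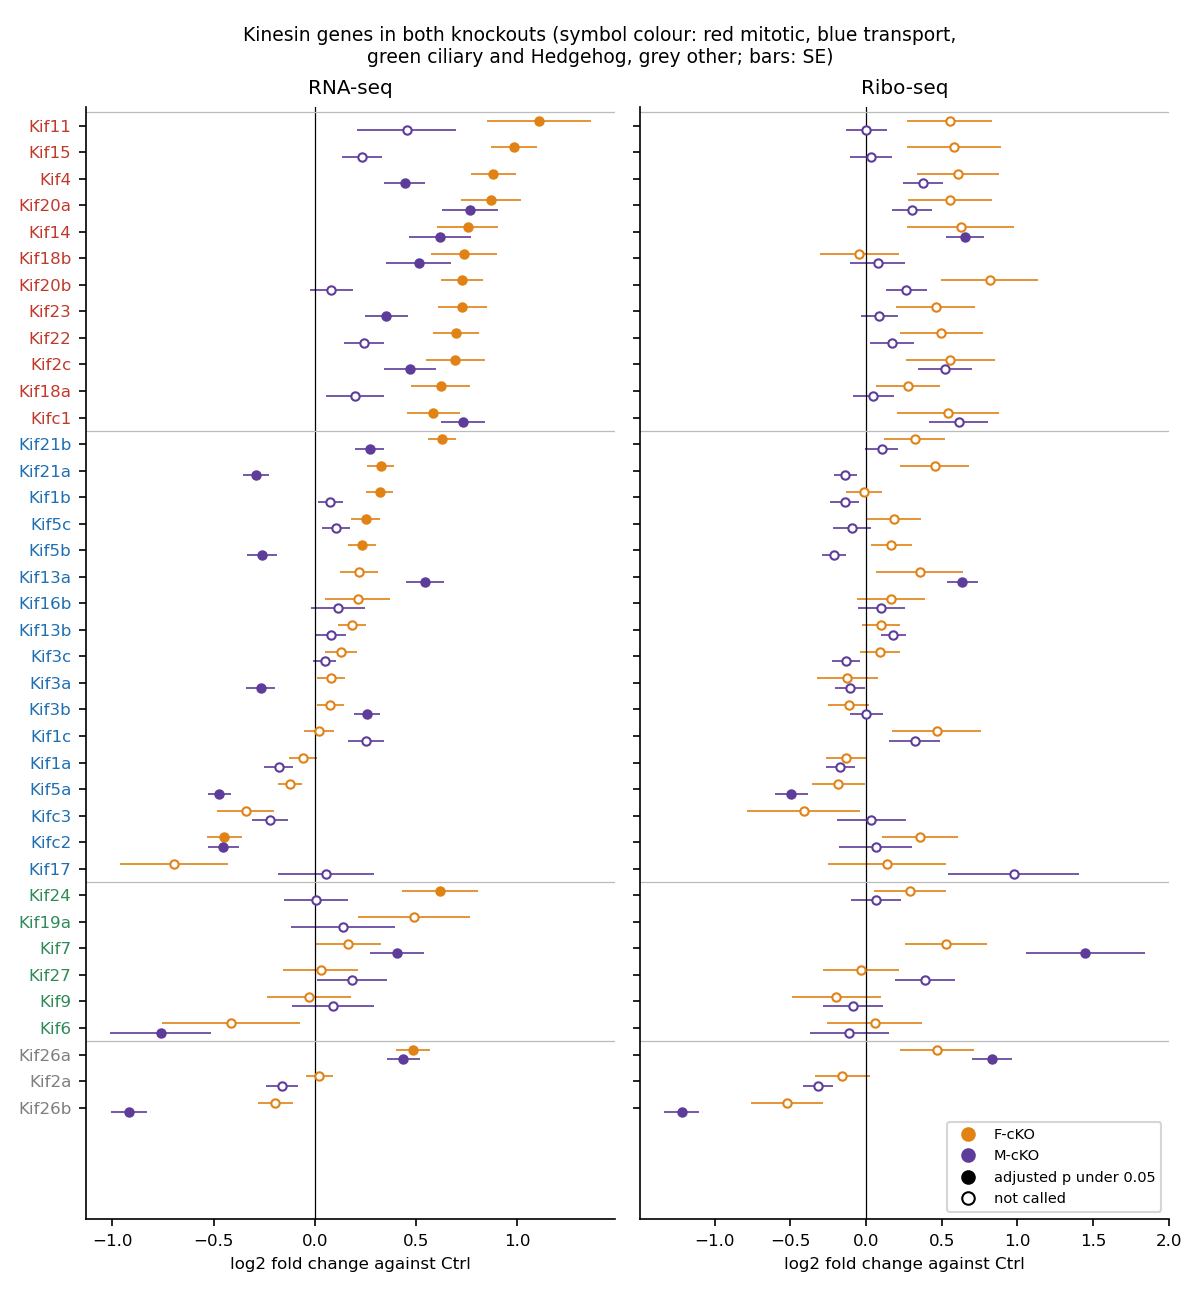
Log2 fold change against Ctrl (x axis) of the 38 kinesins tested in RNA-seq and the 37 tested in Ribo-seq, for F-cKO (orange) and M-cKO (purple), with bars of 1 SE and filled points for an adjusted p under 0.05. In RNA-seq the mitotic genes lie to the right for both knockouts, further for F-cKO except for Kifc1, while in Ribo-seq 6 points are filled, all of them M-cKO.

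The mitotic kinesins shared short promoter sequences that were not used to choose them. Windows of 300 bases (250 before to 50 after the start of a transcript) were available from RefSeq, build GRCm38.p6, for 32 of the 41 members and for 11 of the 12 mitotic kinesins. TTTGAA, the core of the cell cycle genes homology region that the DREAM and MuvB complexes bind, and CCAAT, the box bound by NF-Y, were searched on both strands, and no match of the first shared bases with a match of the second in any of the 36 windows of the members. TTTGAA was found for 10 of 11 mitotic kinesins, the exception being Kif18a, compared with 1 of 11 transport kinesins (Kif1a, in 1 of its windows). It was present in 17.9% of all 32851 promoters of the same length and in 16.0% of those of protein-coding genes. CCAAT was found for 7 of 11 mitotic and 3 of 11 transport kinesins, beside 37.4% of all promoters. Both motifs together were found for 7 mitotic kinesins and for no transport kinesin, beside 6.95% of all promoters. Some of these windows lie inside the RefSeq span of the gene, with a start site 3852 bases from its 5′ end for Kif2c, 1547 bases for Kif14 and 19559 bases for the window of Kif1a that holds TTTGAA. A count of only the windows whose start site lies within 500 bases of the 5′ end, chosen after seeing the data, gave TTTGAA for 8 of 9 mitotic and 0 of 10 transport kinesins, beside 18.1% of such promoters of all genes. Both motifs were then found for 6 of 9 mitotic kinesins, beside 7.16% of such promoters. These matches describe letters in the windows and do not show binding. The 4 mitotic promoters shown here, Kif4 (chrX:100625815-100626114, plus strand), Kif23 (chr9:61946750-61947049, minus strand), Kif22 (chr7:127042371-127042670, minus strand) and Kif11 (chr19:37376132-37376431, plus strand), hold both motifs, with a start site at most 47 bases from the 5′ end of the gene, and Kif5c (chr2:49619036-49619335, plus strand), the most abundant transport kinesin, is shown for contrast. Each is written 5′ to 3′ on the strand of the gene. Capitals mark TTTGAA or its reverse complement TTCAAA and CCAAT or its reverse complement ATTGG:
Kif4: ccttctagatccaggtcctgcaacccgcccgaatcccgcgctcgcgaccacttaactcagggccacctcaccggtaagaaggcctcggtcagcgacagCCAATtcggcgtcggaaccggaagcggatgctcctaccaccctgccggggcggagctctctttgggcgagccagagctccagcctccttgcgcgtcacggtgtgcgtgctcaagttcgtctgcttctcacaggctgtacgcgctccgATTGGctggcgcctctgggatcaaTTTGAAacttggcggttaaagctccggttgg
Kif23: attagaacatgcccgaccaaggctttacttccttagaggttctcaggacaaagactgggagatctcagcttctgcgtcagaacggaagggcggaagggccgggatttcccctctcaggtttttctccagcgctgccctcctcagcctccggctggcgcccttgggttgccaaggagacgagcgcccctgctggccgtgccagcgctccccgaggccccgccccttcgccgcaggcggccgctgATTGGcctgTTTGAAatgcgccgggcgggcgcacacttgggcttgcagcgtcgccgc
Kif22: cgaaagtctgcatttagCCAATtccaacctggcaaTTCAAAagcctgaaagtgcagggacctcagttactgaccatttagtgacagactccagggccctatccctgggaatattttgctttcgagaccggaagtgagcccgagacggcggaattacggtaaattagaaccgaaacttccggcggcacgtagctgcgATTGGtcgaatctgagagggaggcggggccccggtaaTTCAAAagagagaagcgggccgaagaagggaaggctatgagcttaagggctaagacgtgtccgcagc
Kif11: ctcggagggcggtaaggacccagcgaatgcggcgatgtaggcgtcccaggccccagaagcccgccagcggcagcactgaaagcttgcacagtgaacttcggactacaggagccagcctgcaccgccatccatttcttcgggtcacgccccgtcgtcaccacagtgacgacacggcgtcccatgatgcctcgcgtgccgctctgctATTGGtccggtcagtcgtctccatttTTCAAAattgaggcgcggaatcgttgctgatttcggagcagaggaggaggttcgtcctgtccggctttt
Kif5c: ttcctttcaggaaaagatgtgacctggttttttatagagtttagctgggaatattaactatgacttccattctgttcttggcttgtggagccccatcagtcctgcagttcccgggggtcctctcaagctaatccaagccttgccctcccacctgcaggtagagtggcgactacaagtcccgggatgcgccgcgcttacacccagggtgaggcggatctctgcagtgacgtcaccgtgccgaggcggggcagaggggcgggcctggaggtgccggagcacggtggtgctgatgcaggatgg
In Kif11 a hexamer began 19 bases and in Kif22 17 bases before the start site of the window, each on the reverse strand, with a CCAAT match starting 45 and 54 bases before that site. The start site is the 5′ end of the gene for Kif11 and lies 47 bases inside the gene for Kif22.

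In Ribo-seq, footprints of the mitotic kinesins varied more between libraries and were hardly ever called. In F-cKO no kinesin was called, and neither was any other gene, so that 0% of the 14335 genes tested were called higher and 0% lower by edgeR. The deleted gene Fto was among those not called (log2 fold change -2.67, edgeR adjusted p = 0.35). A gene without a call in this comparison is thus not shown to be unchanged. At an unadjusted p under 0.05 there were 227 genes higher and 91 lower, among them 1 mitotic kinesin, and DESeq2 called 5 genes higher and 1 lower, none of them a kinesin. The class median of 0.55, beside 0.05 over all genes, hid a split between libraries. F-cKO replicate 1 lay above the highest Ctrl library for 12 of the 12 genes and replicate 2 for 11, whereas replicate 3 did so for none and lay below the lowest Ctrl library for 8. The shares of all genes in these positions are not given here.

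Kif4 footprints were 51.5, 53.2 and 55.2 CPM in Ctrl and 105, 88.1 and 50.3 CPM in F-cKO. Kif20a footprints were 48.5, 46.9 and 46.4 CPM in Ctrl and 92.7, 73.1 and 42.8 CPM in F-cKO. Kif22 footprints were 46.9, 45.7 and 45.1 CPM in Ctrl and 90.6, 61.3 and 42.6 CPM in F-cKO. For each of them replicate 3 lay just under the lowest Ctrl library while the other F-cKO libraries were well above. Kif23 had 46.5, 51.4 and 43.1 CPM in Ctrl and 77.1, 76.1 and 40.9 CPM in F-cKO, and Kif2c had 48.6, 51.5 and 45.2 CPM in Ctrl and 96.2, 75.5 and 42.1 CPM in F-cKO. Kifc1 footprints were low, at 8.42, 7.07 and 6.04 CPM in Ctrl and 11.8, 13.4 and 6.24 CPM in F-cKO. Kif18b differed from the rest of the class, with 20.4, 21.8 and 15.7 CPM in Ctrl and 24.8, 15.5 and 15.8 CPM in F-cKO, so that only replicate 1 was above Ctrl. The largest fitted difference, that of Kif20b (log2 fold change 0.82, SE 0.32, edgeR adjusted p = 0.73), came from 26.9, 31.4 and 30.6 CPM in Ctrl and 61.3, 66.8 and 28.7 CPM in F-cKO.

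In M-cKO, Kif14 was the only mitotic kinesin whose footprints were called. They were 13.3, 15.2 and 14.1 CPM in Ctrl, 26.5, 27.9 and 11.3 CPM in F-cKO and 24.6, 23.2 and 20.1 CPM in M-cKO (log2 fold change against Ctrl 0.65, SE 0.13, edgeR adjusted p = 0.0201). The call was lost without any single Ctrl library, without M-cKO replicate 1 and in the fit of all groups together. In this comparison 7.13% of the 14314 genes tested were called higher and 7.5% lower, and 4 of the 37 kinesins tested were called higher and 2 lower, all 6 of which lost the call in that fit. The mitotic class median was 0.22, beside 0.00 over all genes.

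Kifc1 footprints of 11.96, 12.5 and 9.06 CPM, Kif2c footprints of 84.1, 76.3 and 51.7 CPM and Kif4 footprints of 81.5, 71.8 and 57.7 CPM in M-cKO all lay above Ctrl, with log2 fold changes of 0.61, 0.52 and 0.38, but were not called by edgeR. DESeq2 called these 3, and so did edgeR without M-cKO replicate 3, the M-cKO library with the lowest mitotic footprints, and Kifc1 was also called among protein-coding genes only. Kif20a had 71.7, 54.7 and 51.8 CPM, Kif23 had 55.8, 51.7 and 44.6 CPM, Kif22 had 60.9, 55.4 and 41.4 CPM and Kif18b had 24.5, 20.8 and 16.8 CPM in M-cKO. For each of these the libraries spread widely, and those of Kif23, Kif22 and Kif18b overlapped Ctrl. Kif11 footprints were 88.7, 99.3 and 99.3 CPM in Ctrl, 188, 149 and 85.1 CPM in F-cKO and 118, 90.3 and 84.3 CPM in M-cKO, with a log2 fold change of 0.001 in M-cKO. Between the knockouts 0% of 14262 genes were called higher and 0% lower in Ribo-seq. There were 710 genes higher and 444 lower at an unadjusted p under 0.05, of which 2 lower ones were kinesins and neither was mitotic, and DESeq2 called 178 genes higher and 28 lower, none of them a kinesin.

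**Figure D3:**
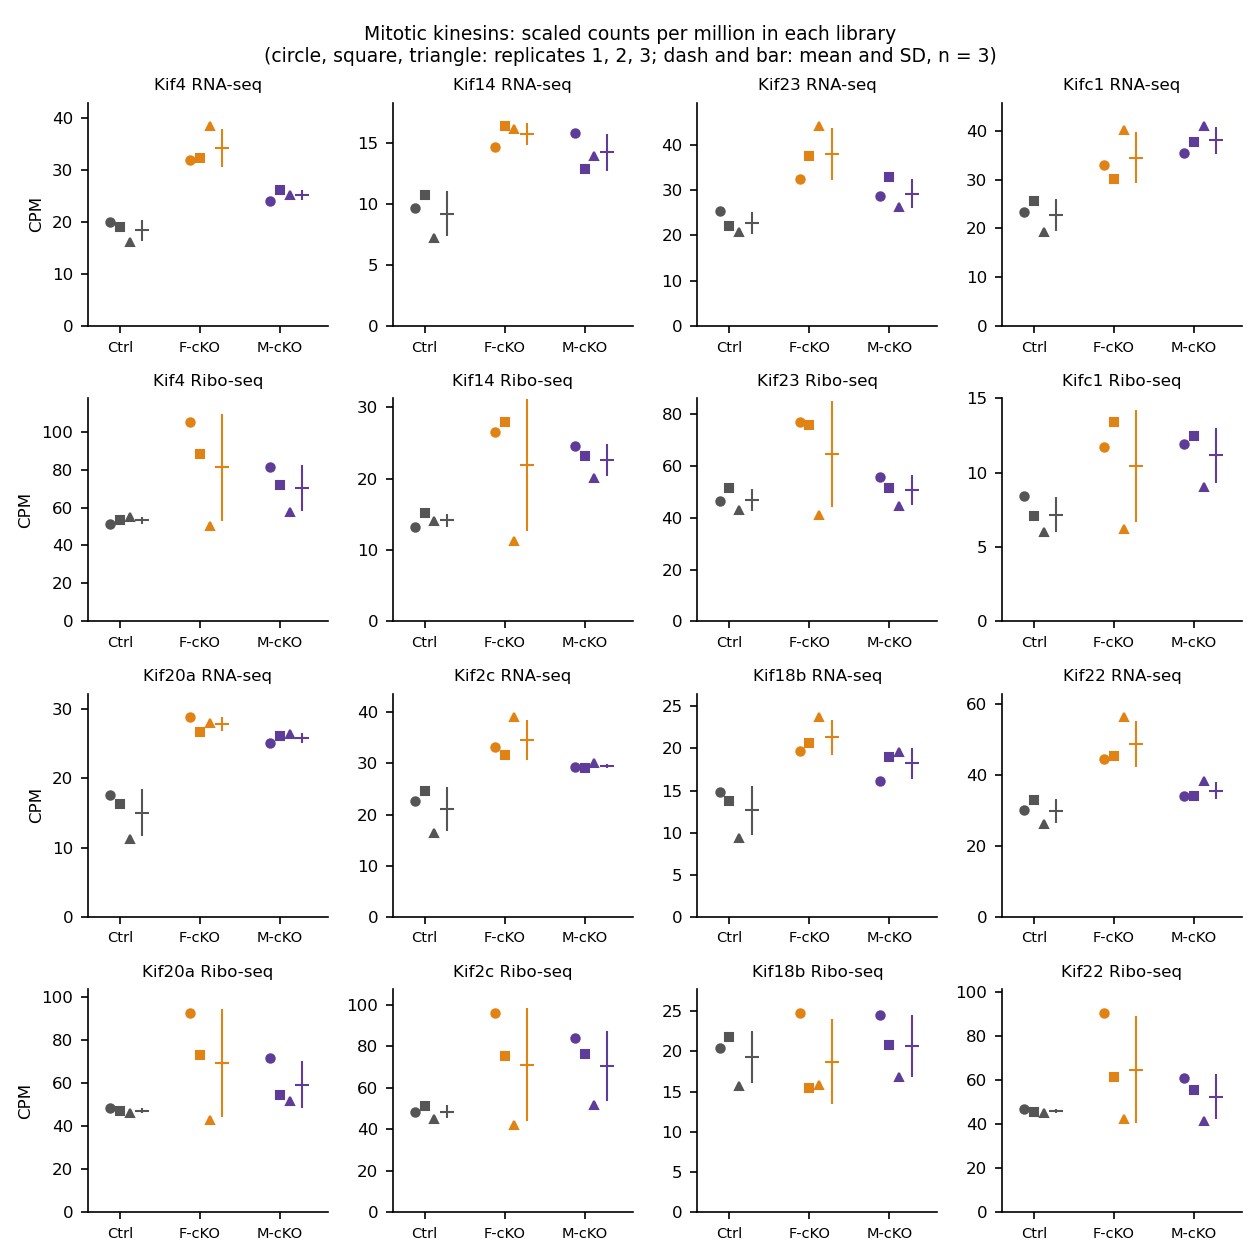
TMM-scaled CPM (y axis, from 0) of 8 mitotic kinesins in each library of Ctrl, F-cKO and M-cKO, RNA-seq above and Ribo-seq below for each gene, with replicates 1, 2 and 3 as circle, square and triangle and the mean and SD beside them. In RNA-seq the F-cKO libraries of each gene lie above Ctrl, while in Ribo-seq the triangle of F-cKO lies below all Ctrl libraries for 6 of these genes and within them for Kifc1 and Kif18b.

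The summed level of the class and that of markers of cycling cells divided the libraries alike. In RNA-seq the 12 mitotic kinesins summed to 212, 212 and 172 CPM in Ctrl, 319, 326 and 379 CPM in F-cKO and 265, 270 and 276 CPM in M-cKO. The 8 markers of cycling cells (Mki67, Top2a, Pcna, Mcm2, Mcm5, Ccna2, Cdc20 and Ube2c) summed to between 546 and 682 CPM in Ctrl, 1016 and 1196 CPM in F-cKO and 890 and 914 CPM in M-cKO. In Ribo-seq the kinesins summed to 481, 508 and 479 CPM in Ctrl, 916, 779 and 436 CPM in F-cKO and 672, 579 and 478 CPM in M-cKO, and the markers of cycling cells to between 1249 and 1314 CPM in Ctrl, 1165 and 2275 CPM in F-cKO and 1275 and 1804 CPM in M-cKO. In Ribo-seq both sums were highest in replicate 1 and lowest in replicate 3 of each knockout. RNA of all 8 markers was called higher in F-cKO and of 6 in M-cKO, where all genes had 11.5% and 15.5% called higher. In bulk tissue a change in the number of dividing cells cannot be told apart from a change in RNA per cell.

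**Figure D4:**
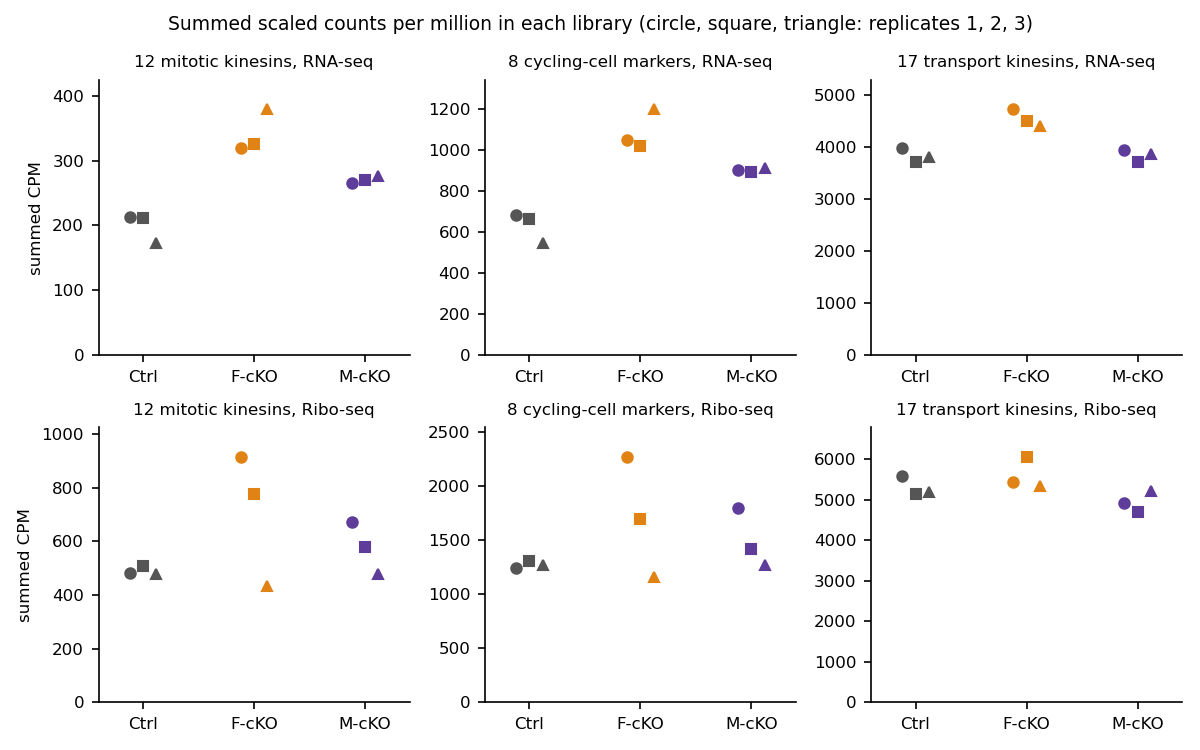
Summed CPM (y axis, from 0) of the 12 mitotic kinesins, the 8 cycling-cell markers and the 17 transport kinesins in each library, RNA-seq above and Ribo-seq below. In RNA-seq the mitotic kinesins and the cycling-cell markers lie highest in F-cKO and lowest in Ctrl, and in Ribo-seq F-cKO the kinesins spread from 436 to 916 CPM.

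Known partners of the mitotic kinesins moved in the same directions in RNA-seq. Of 20 such genes, including chromosomal passenger, spindle checkpoint and centralspindlin components, 20 had higher RNA in F-cKO (median 0.64 on the log2 scale) and 14 in M-cKO (median 0.51), and none fell in either, beside 11.5% and 15.5% of all genes called higher. In M-cKO compared to F-cKO 12 were lower, beside 14.3% of all genes, and none higher. In Ribo-seq M-cKO 5 of 20 were called higher, beside 7.13% of all genes, and 14 of the 20 had a log2 fold change above 0. Ccnb1 went the other way: its RNA was called higher in M-cKO (0.50), while its footprints had -0.42 and were not called (edgeR adjusted p = 0.0958). Its TE was the only one of the list called in M-cKO, and it was lower (-0.87, edgeR adjusted p = 0.0412). Birc5, a subunit of the chromosomal passenger complex, had a log2 fold change of 0.57 for F-cKO RNA, of 0.76 for M-cKO RNA and of 0.60 for M-cKO footprints, all called. Cenpe, a kinetochore motor of the kinesin superfamily whose symbol lies outside the naming rule, had 0.96, 0.60 and 0.65 in the same comparisons, all called. Aurkb, the kinase of the passenger complex, had 0.56, 0.79 and 0.54, all called.

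Markers of other cells were called as well, and their counts stand beside the 11.5% higher and 9.57% lower of all genes in RNA-seq F-cKO and the 15.5% and 14.1% in M-cKO, so that single calls in a list are about that share. In RNA-seq F-cKO, intermediate progenitor markers were called higher for 6 of 8, radial glia markers for 4 of 8 (2 lower), excitatory neuron markers for 4 of 8, pan-neuronal markers for 1 of 8 (4 lower), ganglionic eminence and striatum markers for 6 of 12 and thalamus markers for 2 of 5 tested (1 lower). Meninges markers were called lower for 4 of 7, and the erythroid, endothelium and ciliated cell lists had 1 lower call each, the microglia list none. In RNA-seq M-cKO, ganglionic eminence and striatum markers were called higher for 11 of 12 (median log2 fold change 1.08, summed 664 to 909 CPM beside 506 to 529 CPM in Ctrl), excitatory neuron markers for 6 of 8 (1 lower), intermediate progenitor markers for 3 of 8 (1 lower), radial glia markers for 3 of 8 (2 lower) and pan-neuronal markers for 1 of 8 (3 lower). Thalamus markers had 2 higher and 2 lower calls, ciliated cell markers 1 higher and 2 lower, and the erythroid, meninges, endothelium and microglia lists none. In Ribo-seq M-cKO, ganglionic eminence and striatum markers were called higher for 8 of 12, beside 7.13% higher and 7.5% lower over all genes, and they summed to 598, 647 and 334 CPM in the 3 M-cKO libraries. In that comparison excitatory neuron markers had 2 higher and 1 lower calls, radial glia and thalamus markers 1 of each, markers of cycling cells 1 higher, intermediate progenitor and pan-neuronal markers 1 lower each, and the remaining lists none. In M-cKO compared to F-cKO, RNA was called higher for 7 of 12 ganglionic eminence and striatum markers (median log2 fold change 0.67), 5 of 6 erythroid markers and 4 of 7 meninges markers (median 1.54), and lower for 4 of 8 intermediate progenitor markers, 4 of 8 radial glia markers (1 higher) and 3 of 8 markers of cycling cells, beside 13.1% higher and 14.3% lower over all genes. Pan-neuronal markers had 2 higher and 3 lower calls, excitatory neuron markers 2 of each, thalamus markers 1 lower, and the endothelium, microglia and ciliated cell lists 1 higher call each. The part of any of these lists in the kinesin values was not tested.

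Transport kinesins moved in both directions. Of the 17, RNA of 5 rose and of 1 fell in F-cKO, RNA of 3 rose and of 5 fell in M-cKO, and between the knockouts 1 was higher and 6 lower in M-cKO. Over all genes tested, F-cKO had 11.5% called higher and 9.57% lower, M-cKO 15.5% higher and 14.1% lower, and the comparison of the knockouts 13.1% higher and 14.3% lower. The 3 higher calls in M-cKO, the 1 lower call in F-cKO and the 1 higher call between the knockouts are close to or below those shares. The class medians were 0.13, 0.06 and -0.11, beside -0.013, -0.010 and -0.004 over all genes. The summed level of the 17 genes was nonetheless higher in F-cKO RNA (4720, 4491 and 4401 CPM) than in Ctrl (3988, 3718 and 3801 CPM) and M-cKO (3947, 3711 and 3865 CPM), since abundant members were among those that rose.

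Kif21a and Kif5b were called in opposite directions in the knockouts. Kif21a, a motor that restrains microtubule growth in growth cones, had 202, 206 and 196 CPM in Ctrl, 239.5, 247 and 276 CPM in F-cKO and 166, 176 and 154 CPM in M-cKO. The 3 groups did not overlap: its log2 fold change was 0.32 (SE 0.07) in F-cKO, -0.29 (SE 0.06) in M-cKO and -0.63 (SE 0.08, edgeR adjusted p = 0.000447) between the knockouts, and these calls held in every alternative. Kif5b, the kinesin-1 heavy chain found in all tissues, had 185, 158 and 175 CPM in Ctrl, 213, 196 and 204 CPM in F-cKO and 153, 146 and 135 CPM in M-cKO. It also separated the groups, with log2 fold changes of 0.23 (SE 0.07) in F-cKO, -0.26 (SE 0.07) in M-cKO and -0.50 (SE 0.07, edgeR adjusted p = 0.000669) between the knockouts. Its call in F-cKO was kept only when Ctrl replicate 1 was the library left out, and its call in M-cKO only when that library was Ctrl replicate 2 or M-cKO replicate 1, while the call between the knockouts held in every alternative.

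Kif21b, the paralog of Kif21a, rose in both knockouts and more in F-cKO. It had 674, 651 and 584 CPM in Ctrl, 1016, 949 and 1009 CPM in F-cKO and 769, 735 and 809.6 CPM in M-cKO, with log2 fold changes of 0.63 (SE 0.07, edgeR adjusted p = 0.00294) and 0.27 (SE 0.07, edgeR adjusted p = 0.0133). The difference between the knockouts was -0.37 (SE 0.07, edgeR adjusted p = 0.00296), and no group overlapped with another. Kif1b, which carries synaptic vesicle precursors and mitochondria, had 637, 568 and 589.5 CPM in Ctrl, 794, 739.8 and 725 CPM in F-cKO and 666, 618 and 619 CPM in M-cKO. It was called in F-cKO (log2 fold change 0.32, SE 0.07) and between the knockouts (-0.25, SE 0.06), where the call was lost without F-cKO replicate 1 or 2 or M-cKO replicate 2. Kif5c, the most abundant member, had a small called rise in F-cKO (0.25, SE 0.07, edgeR adjusted p = 0.0351) that was lost without Ctrl replicate 2 or 3 or F-cKO replicate 1 or 2.

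Kif5a, the neuron-specific kinesin-1 heavy chain, fell in M-cKO. It had 357, 344 and 367 CPM in Ctrl, 343, 332 and 316 CPM in F-cKO and 263, 249 and 262 CPM in M-cKO (log2 fold change against Ctrl -0.47, SE 0.06, edgeR adjusted p = 0.000184). Its footprints were 679, 561 and 538 CPM in Ctrl, 492, 451 and 623 CPM in F-cKO and 427, 437 and 419 CPM in M-cKO (-0.49, SE 0.11, edgeR adjusted p = 0.03). All M-cKO libraries lay below Ctrl in both assays, although the Ribo-seq call was lost when any of the 6 libraries was left out and in the fit of all groups together. Its span overlaps Dctn2, a dynactin subunit. Kif3a, the kinesin-2 motor subunit of ciliary and axonal transport, had 127, 116 and 135 CPM in Ctrl, 139, 137 and 127 CPM in F-cKO and 111, 106 and 97.8 CPM in M-cKO. It fell in M-cKO (-0.27, SE 0.07, edgeR adjusted p = 0.0153), whereas its partner Kif3b rose (0.26, SE 0.07, edgeR adjusted p = 0.0123). The call of Kif3a was lost without Ctrl replicate 1 or 3 or M-cKO replicate 3, and that of Kif3b without M-cKO replicate 1. Kifc2 fell by the same amount in both knockouts, from 36.4, 36.6 and 40.0 CPM in Ctrl to 29.7, 28.5 and 25.3 CPM in F-cKO and 27.8, 28.6 and 26.6 CPM in M-cKO (-0.45 in each, SE 0.09 and 0.08).

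Kif13a, a kinesin-3 motor of endosomes and of mannose-6-phosphate receptor transport, was the transport kinesin with the largest called rise in M-cKO in RNA-seq. Its RNA was 39.5, 32.4 and 31.9 CPM in Ctrl, 41.6, 39.5 and 40.5 CPM in F-cKO and 53.6, 51.3 and 47.3 CPM in M-cKO (log2 fold change against Ctrl 0.54, SE 0.09, edgeR adjusted p = 0.00157). It was also the only member called higher in M-cKO than in F-cKO (0.32, SE 0.07, edgeR adjusted p = 0.00945). Its footprints were 26.3, 26.4 and 22.9 CPM in Ctrl, 23.5, 47.0 and 26.3 CPM in F-cKO and 38.9, 39.9 and 40.7 CPM in M-cKO (0.64, SE 0.10, edgeR adjusted p = 0.0138). The footprint values of the 3 M-cKO libraries were close to each other, and the call was lost without Ctrl replicate 1 or Ctrl replicate 2 and in the fit of all groups together. Kif13a RNA was also called higher in F-cKO without Ctrl replicate 1 (0.34, edgeR adjusted p = 0.0337). Kif3c, Kif13b and Kif16b were not called in any comparison or alternative. Kif17, Kif1c, Kif1a and Kifc3 were called in alternatives only, Kif17 higher in M-cKO than in F-cKO in the fit of all groups together (0.74, edgeR adjusted p = 0.0395) and Kifc3 lower in F-cKO than in Ctrl without the filter on low counts (-0.34, edgeR adjusted p = 0.0346). Kif1c came closest, with 47.3, 51.3 and 44.0 CPM in Ctrl, 47.0, 49.6 and 49.4 CPM in F-cKO and 53.1, 54.2 and 63.4 CPM in M-cKO, and 4 of the alternatives that kept all libraries called it higher in M-cKO than in Ctrl. Kif1a RNA was called lower in M-cKO than in Ctrl by DESeq2 (-0.18, adjusted p = 0.0491) and by edgeR without M-cKO replicate 3 (-0.23, adjusted p = 0.0272).

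**Figure D5:**
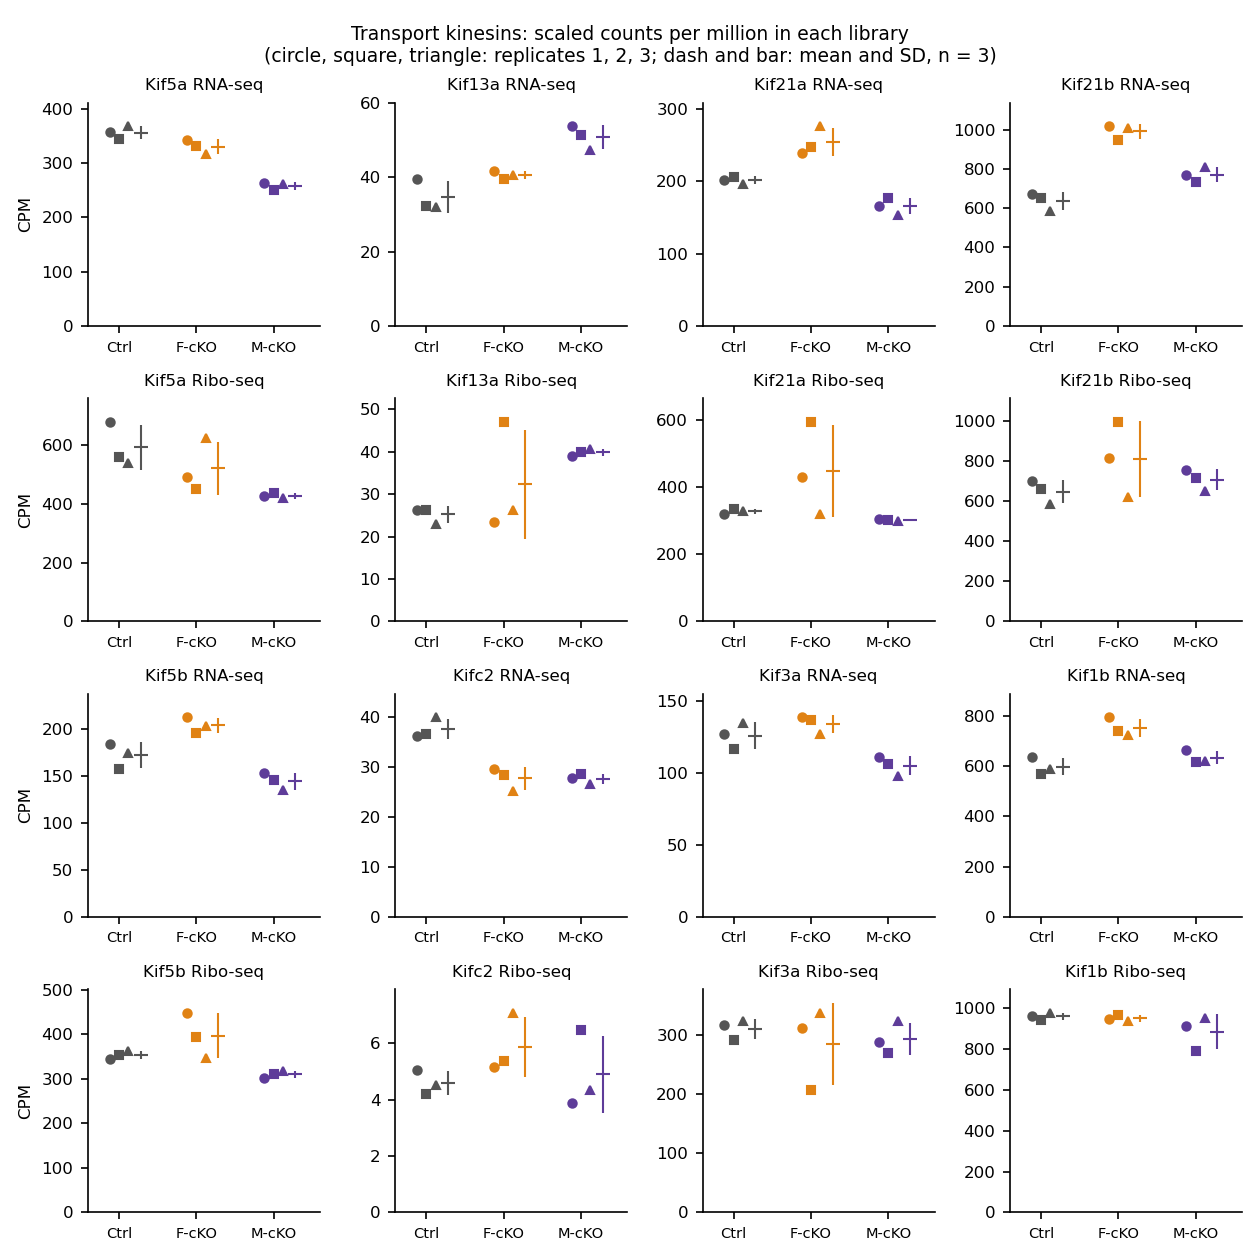
TMM-scaled CPM (y axis, from 0) of 8 transport kinesins in each library of Ctrl, F-cKO and M-cKO, RNA-seq above and Ribo-seq below for each gene, with replicates 1, 2 and 3 as circle, square and triangle and the mean and SD beside them. For Kif21a and Kif5b RNA the F-cKO libraries lie above Ctrl and the M-cKO libraries below it, and for Kif13a the M-cKO libraries are highest in RNA-seq.

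Footprints of the other transport kinesins were not called. Kif21a had 319, 335 and 327 CPM in Ctrl, 431, 593 and 320.2 CPM in F-cKO and 304, 302 and 300.1 CPM in M-cKO. Kif21b had 700.5, 660.4 and 584 CPM in Ctrl, 816, 996 and 618 CPM in F-cKO and 755, 716 and 652 CPM in M-cKO. Kif5b had 344, 352 and 362 CPM in Ctrl, 448, 394 and 347 CPM in F-cKO and 302, 309.5 and 318 CPM in M-cKO. For Kif21a and Kif5b the M-cKO libraries lay below Ctrl in Ribo-seq as in RNA-seq, with log2 fold changes of -0.14 (SE 0.08) and -0.21 (SE 0.08) that were not called. Kif1b had 960.2, 942 and 977 CPM in Ctrl, 945, 968 and 938 CPM in F-cKO and 912, 789 and 954 CPM in M-cKO. Kif3a had 317, 292 and 325 CPM in Ctrl, 312, 207 and 338 CPM in F-cKO and 289, 269.5 and 324 CPM in M-cKO. Kifc2 had 5.04, 4.21 and 4.53 CPM in Ctrl, 5.15, 5.37 and 7.08 CPM in F-cKO and 3.89, 6.46 and 4.33 CPM in M-cKO, which for F-cKO is on the opposite side of Ctrl from its RNA.

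Cargo adaptors and the minus-end motor were read beside the transport kinesins. Of 24 adaptors and regulators of transport found in the tables, 1 rose and 3 fell in F-cKO RNA and 3 rose and 9 fell in M-cKO RNA, with 2 higher and 6 lower for M-cKO footprints. The shares over all genes tested were 11.5% and 9.57%, 15.5% and 14.1%, and 7.13% and 7.5%, so the higher calls are near or below those of other genes. Hap1, an adaptor of kinesin-1 and dynein, had the largest rise, with log2 fold changes of 1.24 in RNA-seq M-cKO and 1.19 in Ribo-seq M-cKO. Ppfia2, a scaffold of presynaptic sites that binds kinesin-3, had -0.73 in RNA-seq M-cKO, and Arl8a, a small GTPase that recruits kinesins to lysosomes and vesicles, had -0.38 in RNA-seq M-cKO and -0.69 in Ribo-seq M-cKO. Of 24 dynein and dynactin genes, 4 rose and 4 fell in F-cKO RNA, 2 rose and 6 fell in M-cKO RNA, and 1 rose and 7 fell in Ribo-seq M-cKO, beside the same shares over all genes. Dync1i1, a neuronal dynein intermediate chain, fell most, by 0.52 on the log2 scale in F-cKO RNA, by 1.13 in M-cKO RNA and by 1.38 in Ribo-seq M-cKO. Dynll2, a dynein light chain, rose in RNA-seq M-cKO (0.38), whereas its footprints had a log2 fold change of -0.33 that was not called and its TE was called lower (-0.66, edgeR adjusted p = 0.0327). Dynlt3, another light chain, fell in RNA-seq M-cKO (-0.58).

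Among the remaining kinesins, Kif26b and Kif26a moved in opposite directions in M-cKO. Kif26b, an atypical kinesin that acts in noncanonical Wnt signaling, had 62.4, 65.3 and 77.7 CPM in Ctrl, 60.6, 56.9 and 63.2 CPM in F-cKO and 35.1, 35.6 and 38.6 CPM in M-cKO (log2 fold change against Ctrl -0.92, SE 0.09, edgeR adjusted p = 5.82e-05). Its footprints were 97.4, 90.6 and 101 CPM in Ctrl, 59.8, 49.5 and 91.3 CPM in F-cKO and 36.1, 44.1 and 45.8 CPM in M-cKO (-1.22, SE 0.12, edgeR adjusted p = 0.00364). In both assays every M-cKO library was below every other library, and the fall between the knockouts was called in RNA-seq (-0.73, SE 0.07, edgeR adjusted p = 0.000158). Of the called falls of kinesins against Ctrl, those of Kif26b were the largest in each assay, and its Ribo-seq call was lost only in the fit of all groups together.

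Kif26a, its paralog, had 151, 183 and 146 CPM in Ctrl, 229, 227 and 222 CPM in F-cKO and 222, 212 and 219 CPM in M-cKO, a rise of 0.49 (SE 0.08, edgeR adjusted p = 0.0058) and of 0.44 (SE 0.08, edgeR adjusted p = 0.00237) on the log2 scale. Its footprints were 85.2, 76.9 and 70.1 CPM in Ctrl, 149, 86.2 and 86.1 CPM in F-cKO and 154, 147 and 118 CPM in M-cKO, and the rise in M-cKO was called (0.83, SE 0.13, edgeR adjusted p = 0.0123), a call that was lost without Ctrl replicate 2 and in the fit of all groups together. All libraries of both knockouts lay above Ctrl in both assays, in Ribo-seq F-cKO by a small margin for replicates 2 and 3. Kif2a, a microtubule depolymerizer that limits the growth of axon branches, was not called in any comparison by edgeR with all libraries, with a log2 fold change of -0.32 (SE 0.10, edgeR adjusted p = 0.0662) for its footprints in M-cKO. Those footprints were called lower by DESeq2 (-0.31, adjusted p = 0.0388) and by edgeR without M-cKO replicate 3 (-0.40, adjusted p = 0.0358). Kif2a, like Kif2c a depolymerizer but placed among the other kinesins, had RNA log2 fold changes of 0.02 in F-cKO and -0.16 in M-cKO.

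Kif7, which regulates Gli factors at the tip of the primary cilium, had 15.3, 14.1 and 11.1 CPM in Ctrl, 12.2, 16.0 and 17.6 CPM in F-cKO and 17.1, 16.9 and 19.9 CPM in M-cKO, a called rise in M-cKO (log2 fold change 0.40, SE 0.13, edgeR adjusted p = 0.0392). Its footprints were 14.1, 10.9 and 9.36 CPM in Ctrl, 21.4, 13.7 and 14.4 CPM in F-cKO and 19.7, 53.7 and 22.2 CPM in M-cKO (1.45, SE 0.39, edgeR adjusted p = 0.0475). M-cKO replicate 2 was far above every other library, and without it the log2 fold change was 0.87 and was still called, whereas the call was lost without any single Ctrl library and in the fit of all groups together. Kif7 overlaps Ticrr, and its RNA call was kept only when Ctrl replicate 1 was the library left out. Kif24, a depolymerizer that represses cilium assembly at centrioles, had 5.63, 7.09 and 5.91 CPM in Ctrl, 7.68, 9.10 and 12.1 CPM in F-cKO and 6.74, 6.55 and 5.50 CPM in M-cKO. It was called in F-cKO (0.62, SE 0.19, edgeR adjusted p = 0.0428) and between the knockouts (-0.62, SE 0.18, edgeR adjusted p = 0.0295), both at low counts. The first call was lost without Ctrl replicate 1 or 3 or F-cKO replicate 2 or 3, and the second without any library other than F-cKO replicate 1. Its footprints were 8.50, 8.69 and 7.98 CPM in Ctrl, 11.1, 11.9 and 7.88 CPM in F-cKO and 10.3, 9.11 and 7.40 CPM in M-cKO and were not called. Kif6 was called lower in RNA-seq M-cKO (-0.76, SE 0.25, edgeR adjusted p = 0.0393) at 0.26 FPKM in Ctrl, a call that was lost without any single library and held in 1 of 11 alternatives. Kif9, Kif19a and Kif27 were not called.

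No kinesin was called by edgeR with all libraries for TE, the change in footprints beyond the change in RNA. In M-cKO 1.65% of the 13208 genes tested were called higher and 1.41% lower, whereas in F-cKO and between the knockouts 0% of 13225 and 0% of 13162 genes were called higher and 0% lower by edgeR. At an unadjusted p under 0.05, M-cKO had 3 kinesins higher, which were Kif7 (log2 difference 1.08, SE 0.43), Kifc2 (0.54, SE 0.22) and Kif26a (0.44, SE 0.16), of 1477 genes higher and 1354 lower. Kif26a was called without Ribo-seq M-cKO replicate 3 (0.57, edgeR adjusted p = 0.0267). F-cKO had Kifc2 higher (0.82, SE 0.21) and Kif18b (-0.77, SE 0.33) and Kif1b (-0.32, SE 0.11) lower, of 577 genes higher and 513 lower, and the comparison of the knockouts had no kinesin, of 234 genes higher and 265 lower. DESeq2 called 8 genes higher and 47 lower in F-cKO, with Kifc2 as the only kinesin, and 15 higher and 3 lower between the knockouts, without a kinesin. The mitotic class had median TE differences of -0.09 in M-cKO and -0.26 in F-cKO, and the transport class of 0.10 and -0.05, beside -0.002 and 0.04 over all genes. The SEs of single mitotic kinesins ran from 0.26 to 0.42 in F-cKO, and TE differences of that size were not detectable.

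Between the classes, the median log2 fold change of mitotic kinesins exceeded that of transport kinesins by 0.60 in RNA-seq F-cKO and by 0.39 in RNA-seq M-cKO. Computed library by library against the Ctrl mean, this difference was 0.50, 0.59 and 0.84 in the F-cKO libraries and 0.30, 0.45 and 0.43 in the M-cKO libraries. In Ribo-seq it was 0.92, 0.48 and -0.22 in the F-cKO libraries and 0.54, 0.27 and -0.02 in the M-cKO libraries. The mitotic class was thus ahead of the transport class in every knockout library of RNA-seq and in 4 of 6 of Ribo-seq, the exceptions being replicate 3 of each knockout. In all, 27 of the 38 members tested were called in at least 1 of the 3 RNA-seq comparisons, beside 46.3% of the 17301 genes tested, and 6 of the 37 tested in at least 1 Ribo-seq comparison, beside 14.6% of 14337 genes.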

How the data were processed

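RNA-seq and Ribo-seq were available for 3 Ctrl, 3 F-cKO and 3 M-cKO libraries each, grouped by their labels. The authors aligned RNA-seq reads with HISAT2 2.0.5 and Ribo-seq reads with TopHat2 to mm10 and counted footprints with HTSeq; the RNA-seq counting tool, and whether strand was used, are not given in the sources used here. The deposited tables hold raw counts per gene, FPKM for RNA-seq and RPKM for Ribo-seq, the latter scaled by the authors to gene length and mapped reads. In the deposited Ribo-seq counts, 40490 genes are blank in all but 1 library and were left out. CPM values were computed from the deposited counts with TMM scaling.

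Counts were tested with edgeR 4.0.16 (R 4.3.3; quasi-likelihood, filterByExpr with minimum count 10 and minimum total 15, TMM) on the 6 libraries compared, and TE as the interaction of assay and genotype over 12 libraries. The scripts were tested on simulated data. Benjamini-Hochberg adjustment ran over all genes tested, with calls at an adjusted p under 0.05 and no limit on the fold change. Alternatives were DESeq2 1.42.0, RLE scaling, no filter, all groups in 1 fit, the replicate number as a block, protein-coding genes only, leaving out each library, and, chosen after seeing the data, TMM over both assays together for TE and only promoter windows at the 5′ end of the gene.

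Members, classes and lists were chosen with earlier results of these data known. Values per library are given for the 8 mitotic, 8 transport and 4 remaining members called in most comparisons (ties by the adjusted p in RNA-seq M-cKO) and for the targeted genes; list examples have the smallest such p. Kif11, Kif15, Kif20b, Kif1c, Fto and Mettl3 excepted, no other gene has them, and the first 4 were singled out after their values were seen. Promoters came from RefSeq (GRCm38.p6). Protein sequences were not used here.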

Additional observations from a re-analysis of the deposited data

Results flagged for a closer look

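In RNA-seq, 15 kinesins differed between the knockouts in the direct edgeR test of M-cKO against F-cKO (log2 fold change, adjusted p under 0.05), 1 higher and 14 lower in M-cKO, of 38 tested and beside 13.1% higher and 14.3% lower of all 16802 genes tested. Groups of 3 libraries were not searched for outlying samples. The only one higher in M-cKO was Kif13a (0.32). Among mitotic kinesins, Kif15 (-0.76), Kif20b (-0.66), Kif22 (-0.46), Kif4 (-0.45), Kif18a (-0.43) and Kif23 (-0.39) were lower. The transport kinesins Kif21a (-0.63), Kif5b (-0.50), Kif21b (-0.37), Kif5a (-0.36), Kif3a (-0.36) and Kif1b (-0.25) were lower as well. Kif26b (-0.73) and Kif24 (-0.62) completed the set. The calls of Kif18a, Kif23, Kif24 and Kif1b were lost without single libraries named above with their values. Cycling-cell markers summed to between 1016 and 1196 CPM in F-cKO and between 890 and 914 CPM in M-cKO. Between the knockouts, markers of the ganglionic eminence and striatum (7 of 12), erythroid cells (5 of 6) and meninges (4 of 7) were also called higher in M-cKO, and those of intermediate progenitors and radial glia (4 of 8 each) lower, beside the same shares over all genes. The part of these lists in the kinesin differences was not tested.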

How the results depend on the processing

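Of the 60 calls of single kinesins, 38 were kept under every alternative run, all of them in RNA-seq, 22 were lost under at least 1 and none reversed. All 6 Ribo-seq calls were lost under at least 1 alternative. Correlations of deviations between libraries of the same replicate number ran from -0.182 to 0.203 in RNA-seq and from -0.323 to 0.174 in Ribo-seq. They lay within the range for different numbers, -0.285 to 0.258 and -0.336 to 0.441. For F-cKO with M-cKO in Ribo-seq, however, the same numbers gave 0.054, 0.144 and 0.174, and different numbers -0.183 to 0.123. A shared effect of the replicate number in these Ribo-seq libraries was not tested. With the replicate number as a block, calls higher and lower were 11 and 6 in RNA-seq M-cKO, 16 and 1 in RNA-seq F-cKO, 1 and 11 between the knockouts, 3 and 2 in Ribo-seq M-cKO and 0 elsewhere. Without the filter, lower calls in RNA-seq F-cKO went from 1 to 2 (Kifc3) and higher calls between the knockouts from 1 to 2 (Kif1c); in 1 fit of all groups the latter were also 2 (Kif17). In Ribo-seq M-cKO the 4 higher calls became 7 with DESeq2 and 0 in the fit of all groups, and the 2 lower calls 3 and 0. Leaving out single libraries gave 0 to 7 higher and 1 to 2 lower calls there, with 7 without M-cKO replicate 3, 4 to 6 instead of 7 lower calls in RNA-seq M-cKO, with 4 without Ctrl replicate 1 or 3, and 0 to 1 higher calls for TE in M-cKO, where Kif26a was called without Ribo-seq M-cKO replicate 3. TE in F-cKO had 1 higher call with DESeq2 (Kifc2). Without single libraries the difference of class medians ranged from 0.28 to 0.46 in RNA-seq M-cKO and from -0.35 to -0.13 between the knockouts. With TMM over both assays together, no kinesin call for TE changed. The causes were not tested. Ribo-seq totals differed by 3.27 times between libraries, against 1.22 times in RNA-seq. The coefficient of variation between libraries of a group fitted by edgeR was 0.23 to 0.413 in Ribo-seq and 0.0938 to 0.103 in RNA-seq. The part of the totals in the precision of footprint and TE differences was not tested.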
